A study of Mus musculus with 9 samples.

Results

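The antioxidant and glutathione defence genes are a list of 41 mouse genes for enzymes and proteins that remove superoxide, hydrogen peroxide and lipid peroxides, make and spend glutathione, keep protein thiols reduced, bind metals, or repair oxidized protein and nucleotides. They were chosen by symbol: a probe set belonged to the list when the platform annotation gave it a single gene symbol, that symbol was on the list, and all arrays held a value for it. By this rule 39 of the 41 genes were measured, on 42 of the 21959 probe sets tested. Gpx4, Prdx1 and Prdx2 each had more than 1 probe set. Prdx5 and Prdx6 were not analysed here, because no probe set carried either symbol alone in the annotation used.

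The RNA came from the hippocampus of male SAMP10/TaSlc mice, an inbred strain bred for accelerated senescence in which the brain ages early. Affymetrix arrays were available for 3 diets with 3 arrays each: green soybean, a standard chow (CE-2) with green soybean extract at 3%; yellow soybean, the same chow with yellow soybean extract at 3%; and control, labelled as the control diet, although the protocol text attached to these samples also speaks of 3% extract in the chow. Feeding ran from month 1 to month 12 of age, all groups shared the strain, sex and chow, and the whole study held 5 diet groups of 12 mice, 6 to a cage. The titles of the samples read SMP30, whereas SAMP10 is the strain given by their characteristics and protocols and is used here. No label says whether an array held 1 mouse or a pool, or that the arrays came from separate mice, so p-values measure the spread between these arrays, which may be technical, and no array is tied to a cage. A control for the ageing strain itself was not analysed here.

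Superoxide dismutases turn superoxide into hydrogen peroxide, which catalase, glutathione peroxidases and peroxiredoxins then reduce to water. The glutathione and thioredoxin systems supply the reducing power for this, and both are renewed by NADPH-dependent reductases. Many of these genes share a regulator, the transcription factor NRF2 (encoded by Nfe2l2), which is held back by KEAP1 and binds the antioxidant response element when oxidants or electrophiles modify KEAP1. In the brain much of the glutathione is made and exported by astrocytes, and the metallothioneins MT1 and MT2 are abundant in the same cells.

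Sequences just upstream of the genes are shown first, because the NRF2 targets and the metallothioneins on the list are textbook cases of genes switched through such short elements. The windows held the 250 bases before each start annotated by RefSeq in build GRCm38.p6, and 33 of the genes had at least 1 window, 44 windows in all. The antioxidant response element core searched was TGACNNNGC, on both strands. It occurred in 7 of the 44 windows (15.9%), against 10.2% of all 32851 windows in the table. Each of the 7 is printed in the direction of transcription with the core in capitals and up to 15 bases on either side, and a core on the opposite strand reads GCNNNGTCA.
Gclm, chr3:122245408-122245446, plus strand: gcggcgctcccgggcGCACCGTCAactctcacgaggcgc
Gstm5, chr3:107895797-107895835, plus strand: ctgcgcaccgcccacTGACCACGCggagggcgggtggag
Mt2, chr8:94172524-94172562, plus strand: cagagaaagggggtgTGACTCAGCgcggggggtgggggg
Nfe2l2, chr2:75704880-75704913, minus strand: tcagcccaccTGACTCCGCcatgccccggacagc
Prdx1, chr4:116685451-116685489, plus strand: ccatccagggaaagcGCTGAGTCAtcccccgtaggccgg
Sod1, chr16:90220691-90220729, plus strand: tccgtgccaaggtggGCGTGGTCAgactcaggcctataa
Txnrd1, chr10:82859099-82859137, plus strand: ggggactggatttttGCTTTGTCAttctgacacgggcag
The genes with a core in these windows make glutathione (Gclm), conjugate it (Gstm5), bind metals (Mt2), regulate the response (Nfe2l2), reduce peroxide (Prdx1), remove superoxide (Sod1) and reduce thioredoxin (Txnrd1). A match says only that these letters stand in the window, and a window without one says nothing about NRF2.

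Metal response element cores, bound by the zinc-sensing factor MTF1, were searched as TGCACNC and TGCGCNC on both strands. They occurred in 10 of the 44 windows (22.7%), against 21.4% of all windows. The windows of Mt1 and Mt2, neighbours on chromosome 8, are printed whole with these cores in capitals.
Mt1, chr8:94178839-94179088, plus strand: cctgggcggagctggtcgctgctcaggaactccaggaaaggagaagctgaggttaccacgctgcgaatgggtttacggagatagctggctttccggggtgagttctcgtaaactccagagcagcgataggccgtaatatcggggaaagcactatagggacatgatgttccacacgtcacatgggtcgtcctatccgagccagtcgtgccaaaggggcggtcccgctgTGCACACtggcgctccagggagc
Mt2, chr8:94172368-94172617, plus strand: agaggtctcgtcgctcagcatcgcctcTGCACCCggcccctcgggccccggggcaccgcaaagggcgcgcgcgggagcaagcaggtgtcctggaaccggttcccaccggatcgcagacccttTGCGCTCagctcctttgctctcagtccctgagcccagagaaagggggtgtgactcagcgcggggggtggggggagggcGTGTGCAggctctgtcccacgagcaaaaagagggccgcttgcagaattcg
The Mt2 window held 3 such cores and the Mt1 window held 1. These counts depend on where the annotated start lies, and their relation to the array values was not tested. In the Mt2 window no core of either kind overlapped another.

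The deposited values are normalized scores, resembling z-scores, from the SuperNORM service that the labels name. Neither the log base nor the size of a unit is stated in the labels or files, so differences are stated in score units and not as folds. A score does not measure abundance in a way that can be compared between genes. Mean scores are used below only to sort probe sets coarsely into higher and lower ones. Over all probe sets a difference between diets had a median standard error of 0.0632 units. Differences of that size, and somewhat larger ones, could therefore not be told from 0 with 3 arrays per diet.

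No probe set on the list differed between diets after Benjamini-Hochberg adjustment over all 21959 probe sets in limma, in any of the 3 comparisons or in the F-test over the 3 diets. The same was true of the table as a whole: the called share was 0% of probe sets in each comparison and in the F-test. The smallest adjusted p on the list was 0.452 for green soybean against control (Gpx1), 1.00 for yellow soybean against control and 0.634 for green against yellow soybean (Nudt1). Higher and lower are therefore used of values that did not pass that test. The 95% interval of a difference had a median half-width of 0.153 units over the 42 probe sets, with a smallest of 0.103 and a largest of 0.563 (Txn1). True differences that far from an estimate, on either side of it, therefore remain possible. The sign of the difference was kept whichever of the 6 arrays was left out for 18 of the 42 probe sets in green soybean against control, for 17 in yellow soybean against control and for 19 in green against yellow soybean.

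In green soybean arrays against control arrays, 32 of the 42 probe sets had a higher mean score, 76.2%, against a background of 65% of all probe sets tested. Their median difference was 0.0370 units, against 0.0296 units over all probe sets. At an unadjusted p below 0.05 in limma, 3 were higher (7.14%), namely Gpx1, Ogg1 and Hmox1, against a background of 8.32%, and 0 were lower, against 1.4%. The background in either direction was 9.72%. The arrays did not overlap, with green soybean above control, for 3 probe sets (7.14%, against 13.2% of all), and with green soybean below control for 0 (against 2.67%). These shares lay near or under those of all probe sets. The count depended on the scaling: with array medians aligned 17 of the 42 were higher, with a median of -0.0131 units against -0.0205 units over all probe sets, and with quantile normalization 26 were higher, with medians of 0.0192 units on the list and 0.00153 units over all. Without control replicate 2 the median of the list was 0.0169 units, and without control replicate 3 it was 0.0590 units. Without green soybean replicate 1 the number at an unadjusted p below 0.05 was 5, and without control replicate 2 it was 0.

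In yellow soybean arrays against the same control arrays, 29 of the 42 were higher, 69.0%, against a background of 60.4%. The median difference was 0.0101 units, against 0.0140 units over all probe sets. It was 0.0389 units without control replicate 3 (35 higher), 0.0260 units without yellow soybean replicate 1, 0.0255 units without yellow soybean replicate 2, 0.00449 units without yellow soybean replicate 3 and 0.00193 units without control replicate 2 (21 higher). At an unadjusted p below 0.05, 0 were higher (background 2.11%) and 1 was lower, Nudt1 (2.38%, background 0.929%), with 3.04% of all probe sets past that p in either direction. The arrays did not overlap for 2 higher probe sets, Gpx1 and Hmox1 (4.76%, background 6.65%), and for 1 lower one, Nudt1 (2.38%, background 2.65%). With array medians aligned 16 were higher and the median was -0.0189 units, and with quantile normalization 21 were higher. Without control replicate 3 the number at an unadjusted p below 0.05 was 3, and without control replicate 1 it was 2. Both soybean comparisons use the same 3 control arrays.

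In green soybean arrays against yellow soybean arrays, 26 of the 42 were higher, 61.9%, against a background of 58%. The median difference was 0.0292 units, against 0.0147 units over all. With array medians aligned 24 were higher and the median was 0.00803 units (-0.00652 units over all), and with yellow soybean replicate 2 left out 22 were higher and the median was 0.0121 units (0.00972 units over all). At an unadjusted p below 0.05, 2 were higher, Nudt1 and Ogg1 (4.76%, background 5.56%), and 0 were lower (background 1.53%), with 7.1% of all probe sets past that p in either direction. The arrays did not overlap for 5 higher probe sets, one of Gpx4 together with Gclc, Nqo1, Nudt1 and Ogg1 (11.9%, background 7.63%), and for 0 lower ones (background 2.92%). Over the 3 diets the F-test gave an unadjusted p below 0.05 for 3 of the 42 (Nudt1, Ogg1 and Gpx1), against 7.06% of all probe sets. Without control replicate 1, 4 probe sets had an unadjusted p below 0.05 in green against yellow soybean, and without yellow soybean replicate 1 there was 1.

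**Figure D1:**
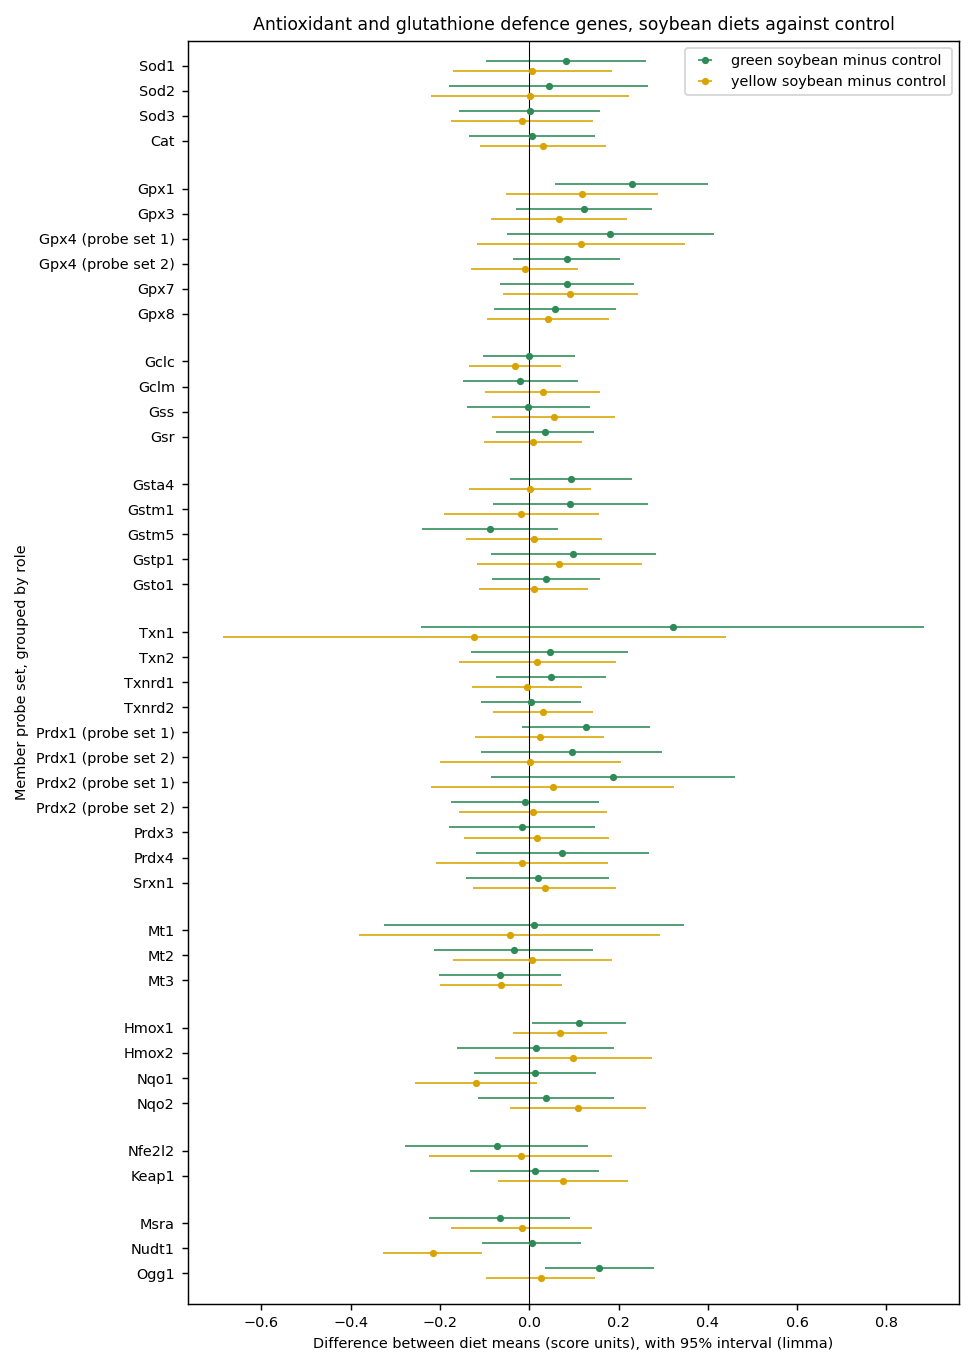
Differences between diet means in score units (x axis) for the 42 probe sets (y axis, grouped by role), with green points for green soybean minus control, yellow points for yellow soybean minus control and bars for 95% intervals from limma; probe sets 1 and 2 of a gene stand in the order in which the text gives them. The intervals of Gpx1, Hmox1 and Ogg1 (green soybean) and Nudt1 (yellow soybean) lie off 0 before any adjustment, and that of Txn1 is the widest at 0.563 units on either side of its point.

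**Figure D2:**
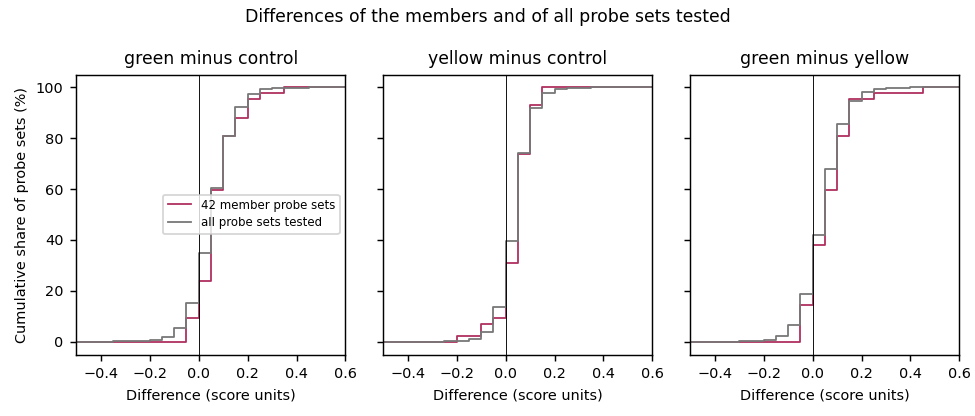
Cumulative share of probe sets in percent (y axis) by their difference in score units, counted in steps of 0.05 units (x axis), for the 42 listed probe sets and for all 21959 tested, with a panel for each comparison. The curves of the listed and of all probe sets run close together: in green soybean against control their medians are 0.0370 and 0.0296 units.

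Glutathione peroxidases, which use glutathione to reduce peroxides, had higher mean scores in green soybean than in control arrays on 6 of 6 probe sets, with a median difference of 0.104 units. In yellow soybean against control 5 of 6 were higher, with a median of 0.0792 units. These counts were also 6 of 6 and 5 of 6 with array medians aligned (medians 0.0537 and 0.0503 units) and with quantile normalization. Of all probe sets, 65% were higher in green soybean and 60.4% in yellow soybean against control. Control replicate 2 was among the 2 lowest arrays for each peroxidase probe set. Their mean relative to the control mean was -0.0922 units on it, and 0.0562 and 0.0360 units on control replicates 1 and 3. It was 0.0826 to 0.170 units on green soybean arrays and 0.0144 to 0.102 units on yellow soybean arrays. Control replicate 2 was the lowest control array for each peroxidase probe set, so every difference from control was lower without it. For Gpx8 the yellow soybean mean, 0.00542 units, then lay under the mean of control replicates 1 and 3 (0.0654 and -0.0487 units). On the mean of the class, yellow soybean replicate 2, at 0.0144 units, lay below both of those control arrays. GPX1 is the main cytosolic selenoenzyme of this family. Gpx1 had 0.728, 0.628 and 0.417 units on the green soybean arrays, 0.449, 0.451 and 0.538 units on the yellow soybean arrays and 0.382, 0.258 and 0.446 units on the control arrays. The lowest green soybean array, replicate 3, lay inside the control range, and all yellow soybean arrays lay above all control arrays, the lowest of them by a narrow margin. Gpx1 averaged 0.591 ± 0.159 units in green soybean, 0.480 ± 0.0508 units in yellow soybean and 0.362 ± 0.0958 units in control arrays (SD, n = 3 each), and the green soybean minus control difference was 0.229 ± 0.0782 units (SE), with a 95% interval from 0.0584 to 0.400 units and an adjusted p of 0.452 in limma. The yellow soybean minus control difference was 0.118 ± 0.0782 units. Without green soybean replicate 3 the first of these differences was 0.316 units, and it stayed between 0.161 and 0.316 units when any 1 array was left out.

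GPX4 reduces lipid hydroperoxides inside membranes, and its loss leads to ferroptosis. The Gpx4 probe set 10363000 had 1.15, 1.33 and 1.46 units on the green soybean arrays, 1.34, 1.08 and 1.32 units on the yellow soybean arrays and 1.28, 0.912 and 1.20 units on the control arrays. The groups overlapped, and the lowest score was that of control replicate 2. The Gpx4 probe set 10364675 had 1.01, 0.998 and 1.15 units on the green soybean arrays, 0.970, 0.924 and 0.983 units on the yellow soybean arrays and 0.972, 0.939 and 0.998 units on the control arrays, and every green soybean array lay above every yellow soybean and control array, replicate 2 by less than the rounding of these values. Its green soybean minus control difference was 0.0836 ± 0.0550 units (SE), against 0.181 ± 0.106 units for the other probe set, and neither passed the test. The first was 0.0335 units without green soybean replicate 3, and the second was 0.0724 units without control replicate 2 and 0.107 units without green soybean replicate 3.

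GPX3 is the secreted, plasma form. Gpx3 had -0.0811, 0.0899 and 0.106 units on the green soybean arrays, -0.0598, -0.0841 and 0.0900 units on the yellow soybean arrays and -0.00270, -0.165 and -0.0856 units on the control arrays. The groups overlapped, and green soybean replicate 1 lay at the level of the control arrays. GPX7 and GPX8 belong to the endoplasmic reticulum. Gpx7 had -0.347, -0.159 and -0.0954 units on the green soybean arrays, -0.113, -0.207 and -0.260 units on the yellow soybean arrays and -0.306, -0.317 and -0.233 units on the control arrays, with the lowest score on a green soybean array. Gpx8 differed by 0.0574 units in green soybean against control and by 0.0412 units in yellow soybean against control.

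Among the enzymes that remove superoxide and hydrogen peroxide, 4 of 4 probe sets had a green soybean mean above the control mean, with a median difference of only 0.0244 units, but 1 of 4 with array medians aligned (-0.0257 units). SOD1 is the cytosolic copper and zinc enzyme. Sod1 had 1.96, 2.04 and 2.30 units on the green soybean arrays, 1.93, 2.03 and 2.11 units on the yellow soybean arrays and 2.03, 1.97 and 2.05 units on the control arrays, and only green soybean replicate 3 stood above the rest, without which the green soybean minus control difference was -0.0175 units. SOD2, the manganese enzyme of mitochondria, had scores of 1.69, 1.92 and 1.86 units on the green soybean arrays, 1.80, 1.62 and 1.92 units on the yellow soybean arrays and 1.58, 1.80 and 1.96 units on the control arrays. Control replicate 1 and yellow soybean replicate 2 were the lowest of its arrays, a pattern shared with other listed genes. SOD3 is secreted. Sod3 had 0.0167, 0.0269 and -0.233 units on the green soybean arrays, -0.0485, -0.0600 and -0.132 units on the yellow soybean arrays and -0.000584, -0.0460 and -0.144 units on the control arrays, and green soybean replicate 3 was the lowest array. Cat, for the peroxisomal enzyme catalase, had 1.18, 1.16 and 0.955 units on the green soybean arrays, 1.14, 1.11 and 1.13 units on the yellow soybean arrays and 1.02, 1.14 and 1.12 units on the control arrays, again lowest on green soybean replicate 3. None of these differences exceeded 0.0821 units in green soybean against control, and their 95% intervals all held 0.

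The genes that make and recycle glutathione had small differences between diets. Only 1 of 4 probe sets was higher in green soybean than in control, with a median of -0.00150561 units, and 3 of 4 were higher in yellow soybean than in control, with a median of 0.0192 units, against 0 of 4 and 2 of 4 with array medians aligned. GCLC and GCLM are the catalytic and modifier subunits of glutamate-cysteine ligase, the rate-limiting enzyme of glutathione synthesis, and both are NRF2 targets. Gclc had 1.01, 0.964 and 0.973 units on the green soybean arrays, 0.962, 0.944 and 0.948 units on the yellow soybean arrays and 1.03, 0.943 and 0.979 units on the control arrays. All green soybean arrays lay above all yellow soybean arrays, by a difference of means of 0.0311 units with an interval from -0.0724 to 0.135 units, while the control arrays covered the range of both. Gclm had 0.847, 0.850 and 0.669 units on the green soybean arrays, 0.807, 0.819 and 0.889 units on the yellow soybean arrays and 0.831, 0.779 and 0.815 units on the control arrays, and green soybean replicate 3 was lowest. GSS adds the last amino acid of glutathione. Gss had 0.168, 0.135 and 0.0347 units on the green soybean arrays, 0.0469, 0.261 and 0.203 units on the yellow soybean arrays and 0.111, 0.0863 and 0.149 units on the control arrays, with yellow soybean replicates 2 and 3 highest. Gsr, for the reductase that returns oxidized glutathione to its reduced form, differed by 0.0347 units in green soybean and by 0.00835 units in yellow soybean against control. For Gclc the green soybean minus control difference was -0.000531 units with an interval from -0.104 to 0.103 units, and for Gclm it was -0.0198 units with an interval from -0.148 to 0.109 units.

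The glutathione transferases, which join glutathione to electrophiles, had 4 of 5 probe sets higher in green soybean than in control (median 0.0923 units) and 4 of 5 higher in yellow soybean than in control (median 0.00964 units), against 3 of 5 and 1 of 5 with array medians aligned. Gsta4, whose product clears the lipid peroxidation product hydroxynonenal, differed by 0.0928 units in green soybean against control. Gstm1 differed by 0.0923 units in the same comparison, or by 0.00417 units without control replicate 1, and Gstp1 by 0.0980 units, or by 0.0345 units without green soybean replicate 2 and 0.197 units without green soybean replicate 3. Gsto1, for an omega-class enzyme with thiol transferase activity, differed by 0.0374 units. Gstm5, a mu-class gene, was the exception with 1.50, 1.55 and 1.27 units on the green soybean arrays, 1.49, 1.55 and 1.58 units on the yellow soybean arrays and 1.58, 1.49 and 1.52 units on the control arrays. Green soybean replicate 3 alone was low, and without it the green soybean minus control difference was -0.00439 units. With all arrays it was -0.0883 units (95% interval from -0.241 to 0.0643, adjusted p = 0.711 in limma).

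Thioredoxins, peroxiredoxins and sulfiredoxin pass electrons from NADPH to oxidized protein thiols and peroxides. In green soybean against control 9 of 11 probe sets were higher, with a median of 0.0484 units, and in yellow soybean against control 8 of 11 were higher, with a median of 0.0162 units, against 5 of 11 and 3 of 11 with array medians aligned. TXN1 is the cytosolic thioredoxin. Txn1 had 2.17, 2.40 and 2.34 units on the green soybean arrays, 1.92, 1.39 and 2.26 units on the yellow soybean arrays and 1.28, 2.29 and 2.37 units on the control arrays. Control replicate 1 and yellow soybean replicate 2 were far below the other arrays, and the rest of the arrays overlapped. The mean was 2.30 ± 0.121 units in green soybean, 1.86 ± 0.434 units in yellow soybean and 1.98 ± 0.610 units in control arrays (SD, n = 3 each). In these 2 comparisons Txn1 had the largest differences on the list in size, 0.321 ± 0.258 units (SE) in green soybean against control and 0.445 ± 0.258 units in green against yellow soybean, with intervals that held 0 (adjusted p = 0.716 and 0.762 in limma). The green soybean minus control difference rested on 1 low array: without control replicate 1 it was -0.0298 units. The green minus yellow soybean difference fell to 0.214 units without yellow soybean replicate 2. Yellow soybean replicate 1 also lay below every green soybean array. The yellow soybean minus control difference was -0.124 units, and it was 0.108 units without yellow soybean replicate 2, 0.0332 units without control replicate 2 and 0.0710 units without control replicate 3.

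PRDX1 is a cytosolic peroxiredoxin and an NRF2 target. The Prdx1 probe set 10436048 had 0.938, 1.10 and 1.14 units on the green soybean arrays, 1.00, 0.987 and 0.878 units on the yellow soybean arrays and 0.969, 0.846 and 0.980 units on the control arrays, overlapping between the groups, with a green soybean minus control difference of 0.127 units (adjusted p = 0.556 in limma). The Prdx1 probe set 10507328 had 0.862, 0.895 and 1.29 units on the green soybean arrays, 0.914, 0.959 and 0.901 units on the yellow soybean arrays and 0.922, 0.896 and 0.949 units on the control arrays, and only green soybean replicate 3 was high. Without that array its green soybean minus control difference was -0.0436 units, against 0.0948 units with it. SRXN1 restores overoxidized peroxiredoxins. Srxn1 had 0.752, 0.677 and 0.485 units on the green soybean arrays, 0.559, 0.634 and 0.768 units on the yellow soybean arrays and 0.629, 0.601 and 0.627 units on the control arrays, with the green soybean arrays on both sides of the control arrays. TXNRD1 is the cytosolic thioredoxin reductase. Txnrd1 had 0.396, 0.359 and 0.333 units on the green soybean arrays, 0.353, 0.375 and 0.198 units on the yellow soybean arrays and 0.345, 0.306 and 0.291 units on the control arrays, and its lowest array was yellow soybean replicate 3.

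The rest of this class was spread around 0 in green soybean against control. Mitochondrial thioredoxin, Txn2, differed by 0.0455 units and the mitochondrial reductase Txnrd2 by 0.00449 units. Prdx2, for a peroxiredoxin abundant in neurons, differed by 0.187 units on probe set 10356999 and by -0.00865 units on probe set 10573483, and the first of these was 0.0587 units without control replicate 1 and 0.102 units without green soybean replicate 3. The mitochondrial Prdx3 differed by -0.0167 units and Prdx4, of the endoplasmic reticulum, by 0.0741 units. In yellow soybean against control these 6 probe sets differed by -0.0163 to 0.0521 units.

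Metallothioneins are small cysteine-rich proteins that bind zinc and copper and quench radicals. Only 1 of 3 was higher in green soybean than in control, with a median difference of -0.0352 units, and likewise 1 of 3 in yellow soybean against control, with a median of -0.0440 units, and 0 of 3 in either comparison with array medians aligned. Mt1 had 1.92, 1.75 and 1.80 units on the green soybean arrays, 1.87, 1.48 and 1.96 units on the yellow soybean arrays and 1.41, 1.99 and 2.05 units on the control arrays. Control replicate 1 and yellow soybean replicate 2 were the lowest arrays, and the others overlapped. MT3 is the brain-enriched form, first described as a growth inhibitory factor. Mt3 had 1.55, 1.57 and 1.57 units on the green soybean arrays, 1.65, 1.50 and 1.55 units on the yellow soybean arrays and 1.51, 1.68 and 1.70 units on the control arrays, with control replicates 2 and 3 highest, and a green soybean minus control difference of -0.0660 units (95% interval from -0.203 to 0.0708). Mt2 was deposited relative to its control mean, so its scores are differences only, and it had -0.144, -0.118 and 0.156 units on the green soybean arrays, 0.121, -0.0872 and -0.0131 units on the yellow soybean arrays and -0.0584, 0.0460 and 0.0124 units on the control arrays. Green soybean replicates 1 and 2 were lowest and replicate 3 was highest. Its green soybean minus control difference was -0.0352 units, but 0.0191 units without green soybean replicate 1 and 0.00613 units without green soybean replicate 2.

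The heme oxygenases degrade heme to biliverdin, iron and carbon monoxide, and the quinone reductases keep quinones from cycling to superoxide. In green soybean against control 4 of 4 probe sets were higher (median 0.0253 units), and 3 of 4 in yellow soybean against control (median 0.0838 units), against 1 of 4 and 3 of 4 with array medians aligned. HMOX1 is the inducible heme oxygenase and a standard NRF2 readout. Hmox1 had -0.0183, 0.0337 and -0.0269 units on the green soybean arrays, -0.0586, -0.0814 and 0.00268 units on the yellow soybean arrays and -0.133, -0.116 and -0.0953 units on the control arrays. All green soybean and all yellow soybean arrays lay above the highest control array. It averaged -0.00383 ± 0.0328 units in green soybean, -0.0458 ± 0.0435 units in yellow soybean and -0.115 ± 0.0187 units in control arrays (SD, n = 3 each), a difference of 0.111 ± 0.0484 units (SE) in green soybean against control (95% interval from 0.00524 to 0.216, adjusted p = 0.499 in limma) and of 0.0689 units in yellow soybean against control. With array medians aligned the green soybean minus control difference was 0.0607 units, and with quantile normalization 0.0732 units.

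NQO1 is the other standard NRF2 target. Nqo1 had -0.266, -0.331 and -0.254 units on the green soybean arrays, -0.428, -0.368 and -0.448 units on the yellow soybean arrays and -0.170, -0.314 and -0.403 units on the control arrays. All yellow soybean arrays were below all green soybean arrays, and yellow soybean replicates 1 and 3 were also below every control array. The green minus yellow soybean difference was 0.131 units (95% interval from -0.00532 to 0.268), and the yellow soybean minus control difference was -0.119 units, or -0.0561 units without control replicate 1. HMOX2 is the constitutive heme oxygenase of neurons. Hmox2 had 0.904, 1.16 and 0.807 units on the green soybean arrays, 1.02, 1.01 and 1.10 units on the yellow soybean arrays and 0.874, 0.950 and 1.01 units on the control arrays, with green soybean arrays both highest and lowest. NQO2 reduces quinones with a cofactor other than NADPH. Nqo2 had 0.0859, 0.173 and 0.0195 units on the green soybean arrays, 0.0978, 0.130 and 0.268 units on the yellow soybean arrays and -0.0157, 0.00414 and 0.180 units on the control arrays, and the groups overlapped.

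The regulators differed little between diets in their transcripts: 1 of 2 was higher in green soybean than in control and 1 of 2 in yellow soybean than in control, against 0 of 2 and 1 of 2 with array medians aligned. NRF2 itself is set mainly by protein stability, which arrays do not read. Nfe2l2 had 0.616, 0.572 and 0.190 units on the green soybean arrays, 0.514, 0.545 and 0.481 units on the yellow soybean arrays and 0.493, 0.491 and 0.613 units on the control arrays. Only green soybean replicate 3 was low, and the other 8 arrays lay between 0.481 and 0.616 units. The green soybean minus control difference was -0.0730 units (95% interval from -0.278 to 0.132), and it was 0.0619 units without green soybean replicate 3. KEAP1, its repressor, had Keap1 scores of 0.416, 0.381 and 0.188 units on the green soybean arrays, 0.383, 0.444 and 0.350 units on the yellow soybean arrays and 0.392, 0.275 and 0.282 units on the control arrays, again with green soybean replicate 3 lowest.

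The last class repairs oxidized protein and nucleotides. In green soybean against control 2 of 3 were higher (median 0.00574 units), in yellow soybean against control 1 of 3 (median -0.0170 units), and in green against yellow soybean 2 of 3 (median 0.131 units). With array medians aligned the first of these counts was 1 of 3 and the second 0 of 3. NUDT1 (also called MTH1) removes oxidized purine nucleotides from the pool. Nudt1 had -0.336, -0.320 and -0.281 units on the green soybean arrays, -0.537, -0.490 and -0.577 units on the yellow soybean arrays and -0.279, -0.379 and -0.297 units on the control arrays. All yellow soybean arrays lay below every green soybean and every control array. It averaged -0.313 ± 0.0285 units in green soybean, -0.535 ± 0.0435 units in yellow soybean and -0.318 ± 0.0532 units in control arrays (SD, n = 3 each). The yellow soybean minus control difference was -0.217 ± 0.0509 units (SE) with a 95% interval from -0.328 to -0.105 units, an unadjusted p of 0.00115 and an adjusted p of 1.00 in limma. The green minus yellow soybean difference was 0.222 ± 0.0509 units with an unadjusted p of 9.44e-04 and an adjusted p of 0.634. Green soybean and control differed by 0.00574 units, with an interval from -0.105 to 0.117 units. Across the omissions of 1 array, the yellow soybean minus control difference ranged from -0.247 to -0.195 units.

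OGG1 is the glycosylase that excises oxidized guanine from DNA, acting on the same lesion that NUDT1 keeps out of the nucleotide pool. Ogg1 had 0.0859, 0.0874 and 0.148 units on the green soybean arrays, -0.0850, 0.0250 and -0.0112 units on the yellow soybean arrays and 0.00174, -0.138 and -0.0130 units on the control arrays. Every green soybean array lay above every yellow soybean and every control array. It averaged 0.107 ± 0.0353 units in green soybean, -0.0237 ± 0.0560 units in yellow soybean and -0.0497 ± 0.0768 units in control arrays (SD, n = 3 each). The green soybean minus control difference was 0.157 ± 0.0559 units (SE) with a 95% interval from 0.0348 to 0.279 units and an adjusted p of 0.461 in limma. The green minus yellow soybean difference was 0.131 ± 0.0559 units with an adjusted p of 0.692. Msra, for an enzyme that repairs oxidized methionine, had 0.746, 0.791 and 0.480 units on the green soybean arrays, 0.727, 0.705 and 0.734 units on the yellow soybean arrays and 0.746, 0.716 and 0.754 units on the control arrays, and green soybean replicate 3 was lowest.

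**Figure D3:**
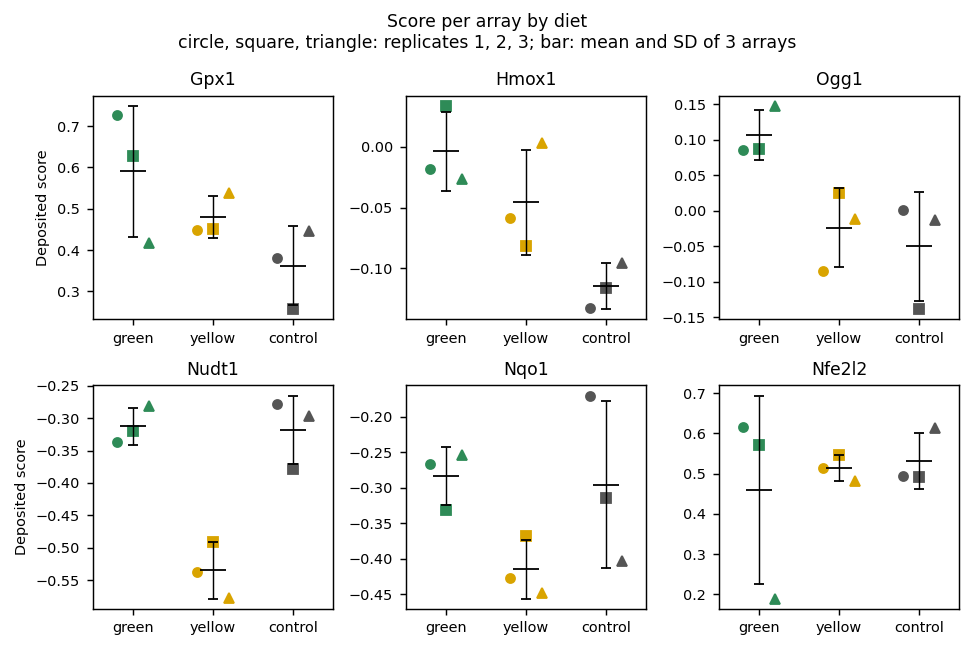
Deposited score (y axis, not starting at 0) on each array by diet (x axis) for Gpx1, Hmox1, Ogg1, Nudt1, Nqo1 and Nfe2l2, with circle, square and triangle for replicates 1, 2 and 3 and bars for the mean and SD of 3 arrays. Nudt1 is lowest on all yellow soybean arrays, at or below -0.490 units, and Ogg1 is highest on all green soybean arrays, at or above 0.0859 units.

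**Figure D4:**
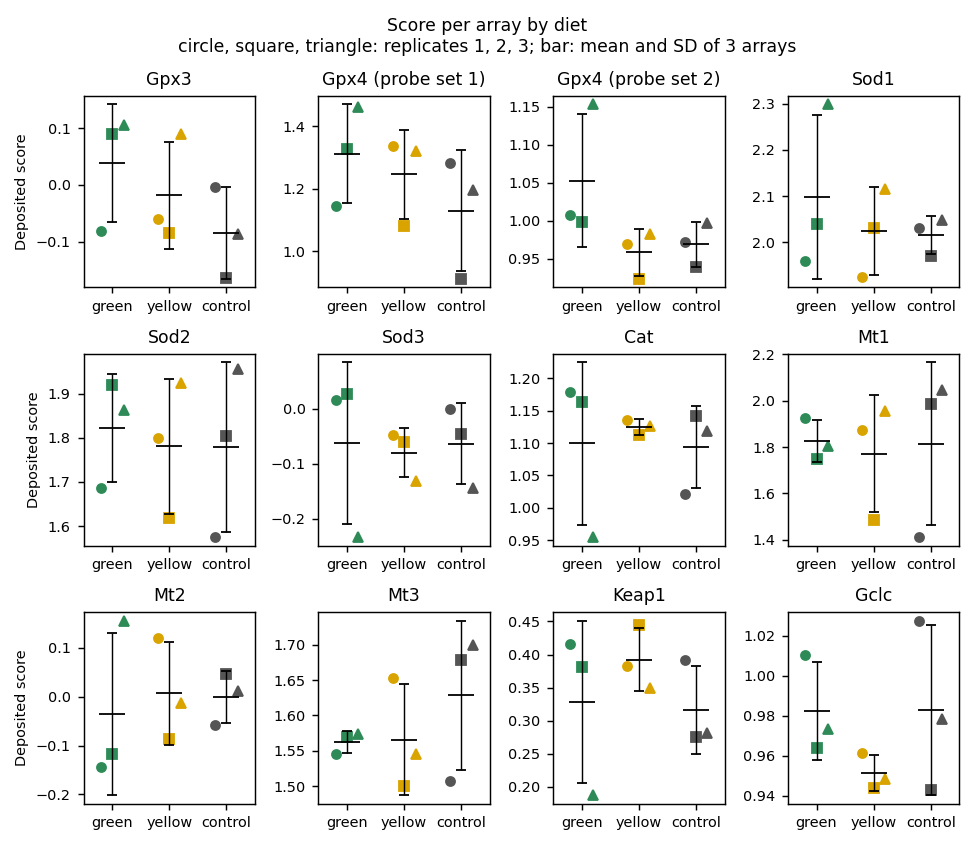
Deposited score (y axis, not starting at 0) on each array by diet (x axis) for 12 further probe sets, with circle, square and triangle for replicates 1, 2 and 3 and bars for the mean and SD of 3 arrays. Green soybean and control arrays overlap in every panel but that of the Gpx4 probe set 10364675 (probe set 2).

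Low scores on a pair of arrays recurred through the list. Control replicate 1 and yellow soybean replicate 2 were the 2 lowest of the 9 arrays for 7 of the 42 probe sets, 16.7%, against a background of 4.61% of all probe sets. These were Sod2, Gstm1, Txn1, Txn2, one probe set of Prdx2 (10356999), Mt1 and Mt3, and the pattern was noticed after the values were seen. It was commoner among probe sets with high scores in general: 24.5% of the 1042 with a mean score at or above 1.39 units had it. On the list 9 probe sets had such a mean. The cutoff is the lowest mean among the 7, so all 7 lie at or above it by construction. Txn1 on yellow soybean replicate 2 stood at -0.694 units relative to the mean of the other yellow soybean arrays, and on control replicate 1 at -1.05 units relative to the mean of the other control arrays. For Mt1 these distances were -0.431 units on yellow soybean replicate 2 and -0.603 units on control replicate 1. The other Prdx2 probe set, 10573483, and Mt2 did not follow the pattern. The mean of the neuron marker list was also low on yellow soybean replicate 2 (-0.110 units relative to the control mean) and control replicate 1 (-0.0689 units). It was low on green soybean replicate 1 as well (-0.0953 units). On yellow soybean replicate 2 and control replicate 1, in that order, the oligodendrocyte list stood at -0.0391 and -0.135 units. The astrocyte list stood at -0.0511 and 0.0349 units, and that of hippocampal pyramidal and granule cells at 0.0304 and 0.0282 units. The part of these cell types in the pattern was not tested.

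**Figure D5:**
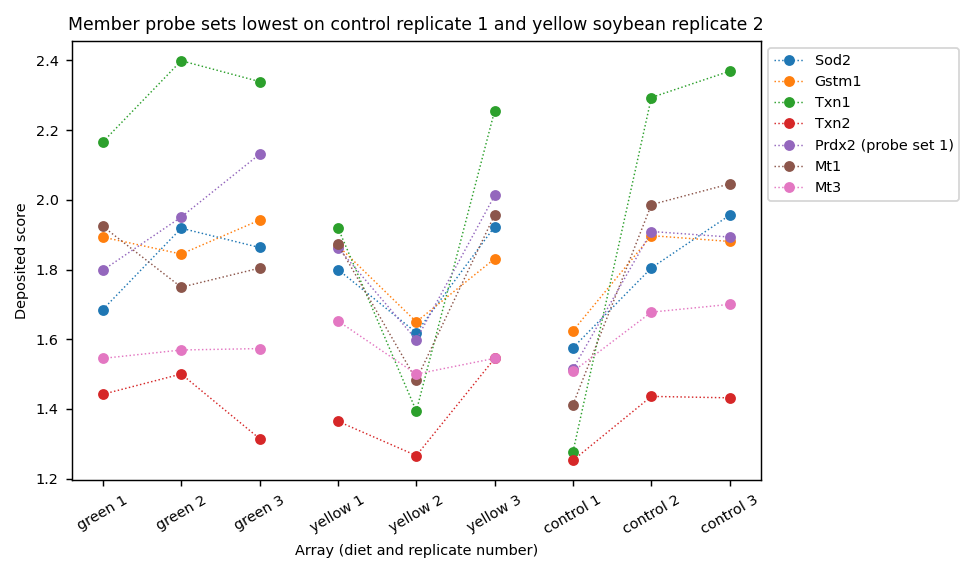
Deposited score (y axis) on each of the 9 arrays (x axis) for the 7 probe sets lowest on control replicate 1 and yellow soybean replicate 2, joined by dotted lines within a diet only to guide the eye. Txn1 has the widest gap, at 1.39 units on yellow soybean replicate 2 and 1.28 units on control replicate 1.

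Green soybean replicate 3 stood apart in another way. Its mean correlation with the other arrays was 0.958, against 0.977 to 0.981 for the rest, over the tested probe sets without those centred on the control mean. It was the lowest of the 9 arrays for 11 of the 42 probe sets (26.2%, background 23.4%), among them Nfe2l2, Keap1, Msra, Gstm5 and Gclm, and the highest for 14 (33.3%, background 24.7%), among them Sod1 and both probe sets of Prdx1. Marker lists of hippocampal pyramidal and granule cells (-0.202 units relative to the control mean) and oligodendrocytes (-0.270 units) were lowest on this array, and their part in these results was not tested. In bulk tissue, fewer cells of a type and less RNA per cell cannot be told apart.

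Markers of tissue that borders the hippocampus varied between arrays, and high values were not confined to green soybean arrays. Of 9 leptomeningeal genes 8 had a higher mean in green soybean than in control (background 65%), with a median of 0.145 units. In yellow soybean against control 7 of 9 were higher (background 60.4%), with a median of 0.124 units. The list mean was 0.0425 to 0.231 units on green soybean arrays, 0.0508 to 0.110 units on yellow soybean arrays and -0.0819 to 0.0814 units on control arrays. Of 8 choroid plexus genes 6 were higher in green soybean than in control, with a median of 0.0858 units. In yellow soybean against control 4 of 8 were higher, with a median of 0.00501 units. Green soybean replicate 1 was highest at 0.446 units, followed by control replicate 1 (0.206 units) and yellow soybean replicate 1 (0.201 units). Green soybean replicates 2 and 3 stood at -0.0347 and 0.00784 units. All 8 hippocampal markers were measured, and 2 of 9 blood markers. The part of these tissues in the peroxidase, Hmox1 and Ogg1 values was not tested.

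The wider pathway, 96 genes not on the list, was measured on 89 probe sets for 84 of them. In green soybean against control 60 of 89 were higher, (67.4%, background 65%) with a median of 0.0236 units, and 6 had an unadjusted p below 0.05, all higher (6.74%, background 9.72% in either direction). In yellow soybean against control 56 were higher (62.9%, background 60.4%) and 3 had such a p (3.37%, background 3.04%). In green against yellow soybean 48 were higher (53.9%, background 58%) and 4 had such a p, all lower (4.49%, background 1.53% lower and 7.1% in either direction). No probe set was called. Osgin1, an NRF2 target that inhibits growth, averaged -0.0712 units in green soybean and -0.323 units in control arrays, a difference of 0.252 units (adjusted p = 0.430 in limma). Chac1, which degrades glutathione, differed by 0.203 units in the same comparison (adjusted p = 0.438). Ftl1, the ferritin light chain, averaged 0.137 units in yellow soybean and -0.243 units in control arrays, a difference of 0.380 units (adjusted p = 1.00). Me1, for the NADPH-making malic enzyme, differed by 0.314 units in yellow soybean against control on probe set 10405753 and by -0.0292 units on probe set 10595480. Gstm3 was -0.380 units in green against yellow soybean on probe set 10362511 and -0.0993 units on probe set 10501218. Rgn, the gene of the protein SMP30 named in the sample titles, held an exact 0 on 5 arrays and gave no comparison.

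The authors' deposited table holds a p-value for each probe set from a test that neither labels nor headers describe. Such a p in the authors' deposited table was below 0.05 for 19.2% of the 21605 tested probe sets that have one and for 7 of the 42 listed ones (16.7%), for Mt2 (9.28e-04), Mt3 (0.00606), Hmox1 (0.0248), Gstm5 (0.0280), Nqo2 (0.0395), Keap1 (0.0429) and Ogg1 (0.0446). Mt2, the lowest of these, is the probe set deposited relative to its control mean. The largest deposited p among all 1345 tested probe sets deposited in that way was 0.00497, so a low p was common to them. The green soybean minus control difference of Mt2 in the fit above was -0.0352 units (adjusted p = 0.915 in limma).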

How the data were processed

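RNA from the hippocampus was measured on 1-colour Affymetrix arrays with biotinylated cRNA, 3 arrays per diet, grouped by the sample titles. The authors deposited a normalized score per probe set and array, with the SuperNORM service named per the labels; earlier steps are not stated in the sources used here. The authors' deposited table also holds a p-value per probe set from a comparison not stated in the sources used here, which was used only to describe probe sets. Of 34760 probe sets, 21640 had 1 gene symbol in the platform annotation, 1321 several and 11799 none. The 6573 control-type probe sets and 6228 others with an exact 0, read as no value, were left out, and 21959 were tested. Of those, 1345 were deposited centred on the control mean. Another 18 per-sample columns matched no label and were not used.

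All 9 arrays were fitted in 1 model (R 4.3.3, limma 3.58.1, eBayes without trend, contrasts between diets), two-sided, with Benjamini-Hochberg adjustment over all probe sets and a threshold of 0.05. In simulated data for green soybean against control with 21959 probe sets, the fit recovered 18% of 50 shifts of 0.2 units, 88% of 0.5 units, 98% of 1 unit and 100% of 2 units. All sizes were placed together in the same simulated data with independent normal noise, so the larger shifts eased the adjustment for the smaller ones. These rates may therefore be too high for the real arrays, where no probe set was called. The number of arrays limits the precision. Member genes and all lists were chosen with earlier results of these data known. Values on every array are given for the NRF2 pair and its textbook targets, the dismutases, catalase, 3 glutathione peroxidases, the metallothioneins, and up to 5 probe sets per direction and comparison with the smallest unadjusted p, and other genes outside the list by smallest p within their class. Alternatives covered scaling, filters, array weights, a replicate block and leaving out each array.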

Additional observations from a re-analysis of the deposited data

How the results depend on the processing

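In the 20 alternatives run, 19 of them planned, no listed probe set was called in any comparison. The 30 differences with the smallest p per direction and comparison were followed through each alternative that kept the probe set. Of their values 576 kept their direction and 10 turned. Over all 42 listed probe sets, leaving out 1 of the 6 arrays turned the sign of 24 in green soybean against control, 25 in yellow soybean against control and 23 in green against yellow soybean. Listed probe sets at an unadjusted p below 0.05 in limma numbered 3 for green soybean against control, 1 for yellow soybean against control and 2 for green against yellow soybean. With array medians aligned these counts were 1, 2 and 1 (7.9%, 3.19% and 6.21% of all probe sets), with quantile normalization 1 in green soybean against control and 1 in green against yellow soybean (6.98% and 5.66% of all), and with the dimmer part left out and an intensity trend 1, 0 and 0 of 30 probe sets (5.07%, 1.58% and 3.17% of all). Yellow soybean against control gave 2 without control replicate 1 and yellow soybean replicate 2, an alternative chosen after seeing the data (3.68% of all), and green against yellow soybean gave 4 with only its 6 arrays fitted (5.18% of all). Leaving out each array gave 0 to 5, 1 to 3 and 1 to 4. The dimmer part, with mean scores below the median of 0.128 units, held 12 of the listed probe sets. Hmox1, Nqo1, Nudt1 and Ogg1 were among them, so the alternative without the dimmer part could not follow these genes. Mt2 was also among them, but it was deposited relative to its control mean, so its place there does not show a dim signal. The median difference of the list in green soybean against control was -0.0131 units with array medians aligned, where the median of all probe sets was -0.0205 units. With the dimmer part left out it was 0.0361 units, where the median of all probe sets kept was 0.00848 units. Over all probe sets, 1 was called in green soybean against control with array quality weights, and 0 to 1 when each array was left out, in that comparison and in green against yellow soybean, in both without green soybean replicate 3. The cause of these changes was not tested.

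The sign of the green soybean minus control difference turned for Msra with array quality weights (0.00637 units) and without green soybean replicate 3 (0.0301 units), for Nfe2l2 in the same 2 settings (0.0218 and 0.0619 units), and for Mt2 without green soybean replicate 1 (0.0191 units) or 2 (0.00613 units). It turned for Txn1 in yellow soybean against control without yellow soybean replicate 2 (0.108 units), control replicate 2 (0.0332 units) or control replicate 3 (0.0710 units), and for Keap1 in green against yellow soybean without green soybean replicate 3 (0.00631 units). The lowest values with 1 array left out were -0.126 units for Msra, -0.152 units for Nfe2l2, -0.131 units for Mt2, -0.475 units for Txn1 and -0.108 units for Keap1. With the replicate number as a block the counts at an unadjusted p below 0.05 were 2, 1 and 2, and no call changed. Deviations of same-numbered arrays correlated at 0.164, 0.0226 and 0.0265 between green soybean and control, at -0.0790, -0.0877 and 0.152 between yellow soybean and control, and at -0.00356, -0.0658 and -0.0261 between green and yellow soybean. Differently numbered arrays gave -0.167 to 0.134, -0.120 to 0.193 and -0.0151 to 0.0421 in the same order. These values cannot tell whether arrays with the same number were handled together.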
